A study of Homo sapiens with 2 samples.

Results

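SUMO is a small ubiquitin-like protein that is joined to lysines of target proteins and can be cut off again by isopeptidases. The group described here is the human SUMO isopeptidase genes together with PIAS4, a SUMO ligase. The members were 10 gene symbols, selected on the function of the proteins and on the difference and levels of DESI2 on these same arrays. Of these 10, 9 had a probe set in the table used, out of 17687 named genes in all, and each of the 9 had 1 probe set. SENP2 was not analysed here.

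The cells were SW48, an established human colorectal cancer line. The culture labelled YY1 knockdown (siYY1) was given a small interfering RNA (siRNA) against the zinc finger transcription factor YY1. The culture labelled control (siControl) was given a negative control siRNA. Both cultures shared the lipid transfection reagent, the siRNA concentration of 5 nmol/L and 3 days of culture, and total RNA of each was hybridised to 1 whole-transcript GeneChip. A single siRNA was used against YY1. YY1 transcript was not analysed here, so neither the knockdown nor the array labels could be checked.

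Attachment of SUMO runs through an activating enzyme, a conjugating enzyme and ligases, and it changes how nuclear proteins bind each other, where they sit and how stable they are. It is reversed by the SENP proteases and USPL1, and removal of SUMO has been reported for the DESI protease DESI1. SENP proteases also cut the SUMO precursor to its mature form, and transcription factors, chromatin proteins and nuclear bodies are among the best known substrates. PIAS4 has been reported to act as a SUMO ligase for YY1.

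Each group had a single array, so no replicate error exists and nothing was tested. A difference below is the log2 value in siYY1 less that in siControl, and it applies to these arrays only. Expressed genes were taken as those with a mean log2 value over both arrays at or above the median of named genes (7.54), which left 8844 kept genes. All 9 members passed, and each lay above that value on both arrays. The median difference over kept genes was 0.00, and the median absolute difference was 0.18. Of 11 colon epithelial markers measured, 7 passed the filter, among them EPCAM and CDX2, whereas VIL1, CDX1, LGALS4 and GPA33 did not pass. Few markers of other cell types passed, namely 1 of 8 for fibroblasts, 2 of 12 for leukocytes and 0 of 8 for endothelium. The reference genes ACTB and GAPDH differed by 0.11 and -0.03, though both GAPDH values exceeded 16, more than a 16-bit scanner can record on a log2 scale. All 11 reference genes measured were kept, 5 higher and 6 lower, with a median of -0.03 and a range from -0.38 for YWHAZ to 0.20 for GUSB. SDHA differed by -0.33, so differences of about this size occurred among reference genes too.

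DESI2 was the member that stood apart, and its upstream sequence is shown because YY1 was the factor targeted. The window shown is the 250 bases before the RefSeq start of DESI2, at chr1:244652876-244653125 on the plus strand of GRCh38.p14, and 74.4% of its bases are G or C. Capitals mark a match to the YY1 consensus (AANATGGC followed by GGC), here on the opposite strand, and the E-box CACGTG.

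DESI2 upstream: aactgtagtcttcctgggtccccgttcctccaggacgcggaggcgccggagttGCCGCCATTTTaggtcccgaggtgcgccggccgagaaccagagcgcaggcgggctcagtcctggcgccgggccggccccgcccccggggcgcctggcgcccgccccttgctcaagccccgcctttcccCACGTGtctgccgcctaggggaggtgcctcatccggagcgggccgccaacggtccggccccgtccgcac

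The other member with a match was PIAS4. To compare both matches, a 30-base stretch around each is given, with the consensus match in capitals. The PIAS4 stretch lies at chr19:4007749-4007778 on the plus strand, and the DESI2 stretch at chr1:244652920-244652949.
DESI2: gccggagttGCCGCCATTTTaggtcccgag
PIAS4: ctggtgaccAAGATGGCGGCggagctggtg

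The match in DESI2 ran from -197 to -187 relative to the RefSeq start and read as the consensus on the minus strand. In PIAS4 it ran from 23 to 33, downstream of the start, on the plus strand. Promoter windows of 300 bases (250 before and 50 after the start) were available for 7 of the members, with 9 windows in all because SENP1 had 3. DESI2 and PIAS4 were the 2 members with this consensus on either strand, and 1.44% of 35116 windows of all genes held it. The shorter core AANATGGC, which is contained in the full consensus, was found in the same members and in 6.58% of windows. The palindrome CACGTG occurred in DESI2 from -69 to -64 and in PIAS4 from -27 to -22, and 7.26% of windows held it. These motifs were chosen with the DESI2 window in view, and a match describes letters, not binding. Those shares are per window and include genes under the filter, so they are not a like measure for the members. Counted per gene, 339 of the 8844 kept genes had the full consensus in a window, 1044 the shorter core and 988 CACGTG. The 339 genes with the full consensus had a median difference of 0.07. Of these, 10 (2.95%) were higher in siYY1 by 1.5-fold or more, against 3.04% of all kept genes, and 6 (1.77%) were lower by as much, against 3.78% of all kept genes. DESI2 was 1 of these 10, a share close to that of all kept genes, and PIAS4 was not among them. DESI2 was picked for its size, so its place there says nothing about the motif.

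The DESI proteases are a small family of cysteine proteases with a fold distinct from that of the SENPs, and an action of DESI2 on ubiquitin has been reported. DESI2 measured 12.62 in siYY1 and 10.94 in siControl, a difference of 1.68, or 3.21-fold higher in siYY1. The pseudogene RPL37P8 overlaps DESI2 in the RefSeq table, and whether the probe set separates them was not tested. In bulk RNA, more cells expressing a gene and more RNA per cell cannot be told apart. DESI2 ranked 5 among 8844 kept genes ordered from the most positive difference down, and 7 kept genes had a larger absolute difference in either direction. Its paralog DESI1, which was reported to remove SUMO from the transcriptional repressor BZEL, measured 9.05 in siYY1 and 9.33 in siControl. DESI1 therefore differed by -0.28, in the opposite direction to DESI2, and the differences of the paralogs were 1.96 apart on the log2 scale. DESI2 was picked for its size among all kept genes, so its difference is a description.

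**Figure D1:**
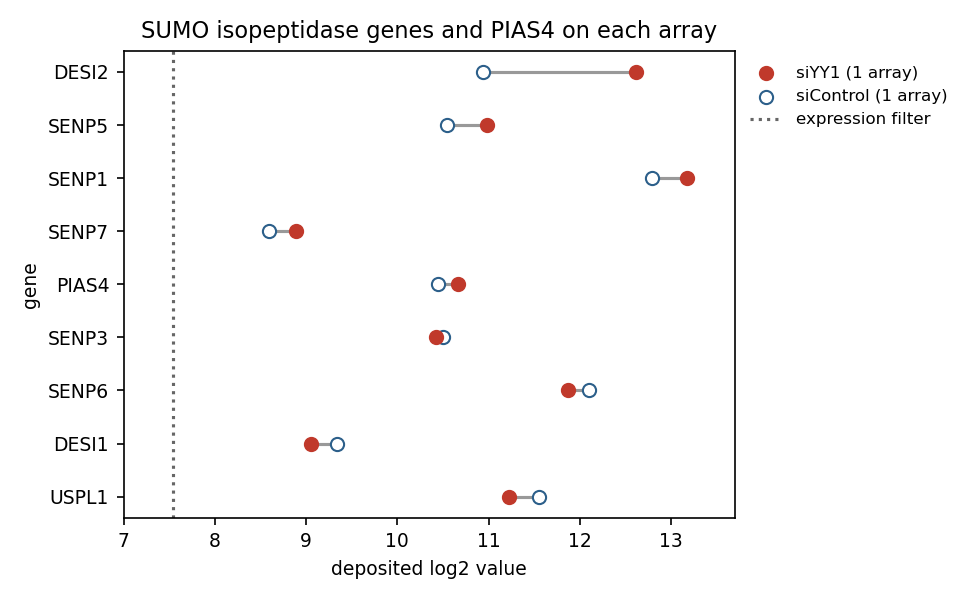
Deposited log2 value (horizontal axis) of each measured member on the siYY1 array (filled) and the siControl array (open), with the expression filter as a dotted line. DESI2 lies at 12.62 in siYY1 and 10.94 in siControl, while the points of every other member are at most 0.43 apart. Levels of different genes come from different probes and are not comparable.

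Among the SENP proteases, SENP1 acts on all SUMO forms and also matures the precursor. SENP1 measured 13.17 in siYY1 and 12.79 in siControl, a difference of 0.38 or 1.30-fold higher. SENP3 and SENP5 are nucleolar proteases that prefer SUMO2 and SUMO3. SENP5 measured 10.98 in siYY1 and 10.55 in siControl, and its difference of 0.43 was the next largest after that of DESI2. SENP3 measured 10.43 in siYY1 and 10.50 in siControl, a difference of -0.08, the smallest in size of the group. The closely related SENP5 and SENP3 were 0.51 apart in their differences. SENP3 overlaps the readthrough transcript SENP3-EIF4A1, which differed by 0.12, and the probes may not separate them.

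SENP6 and SENP7 trim chains of SUMO2 and SUMO3. SENP6 measured 11.88 in siYY1 and 12.10 in siControl, a difference of -0.23. SENP7 measured 8.89 in siYY1 and 8.60 in siControl, a difference of 0.30. The pair of chain-trimming proteases thus had differences of opposite sign. Of the 5 SENP genes measured, 3 were higher and 2 lower in siYY1, with a median difference of 0.30. None reached 1.5-fold, against 6.82% of all kept genes in either direction, and with so few genes this was not read further.

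USPL1, a SUMO isopeptidase of Cajal bodies that is related in sequence to ubiquitin proteases, measured 11.23 in siYY1 and 11.55 in siControl. Its difference of -0.33 was the most negative of the group. PIAS4, the ligase among the members, measured 10.67 in siYY1 and 10.44 in siControl, a difference of 0.22.

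In all, 5 of the 9 members were higher and 4 lower in siYY1, with a median difference of 0.22, which is the value of PIAS4. Without PIAS4, the ligase, 4 were higher and 4 lower, and the median was 0.11. Without DESI2 the remaining 8 divided evenly, 4 higher and 4 lower, and their median was 0.07. At 1.5-fold, 1 of 9 members was past the threshold, on the high side, against 6.82% of all kept genes in either direction and 3.04% on the high side. Since DESI2 led to the choice of the group, that count says nothing about the group. At a lower threshold, an absolute log2 difference of 0.32, 4 of the 9 members were past it, against 25.7% of kept genes. DESI2, SENP5 and SENP1 were higher and USPL1 was lower. This count too includes DESI2, and USPL1 was only just past, at -0.326 against a cut of 0.322, so it was not read further. The 8 members other than DESI2 lay well inside the bulk of the array. The share of kept genes with a larger absolute difference was 14.9% for SENP5, 19.2% for SENP1, 25.2% for USPL1, 29.2% for SENP7, 31.7% for DESI1, 41.5% for SENP6, 41.7% for PIAS4 and 77.7% for SENP3. For DESI2 it was 0.0791%.

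**Figure D2:**
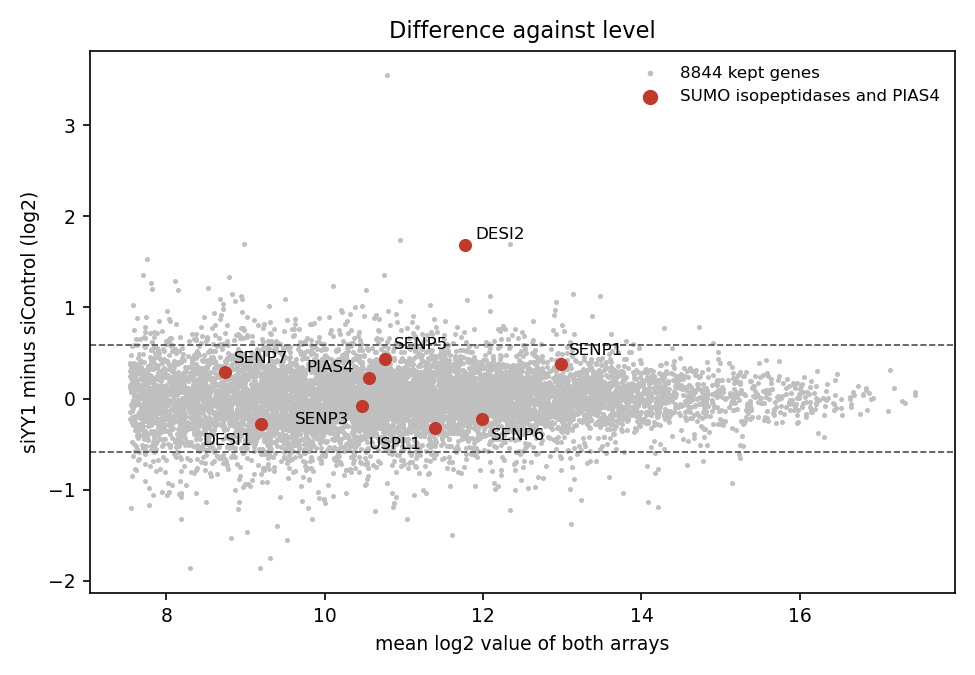
Difference siYY1 minus siControl (vertical axis, log2) against mean log2 value of both arrays (horizontal axis) for the 8844 kept genes (grey) and the 9 measured members (red); dashed lines mark 1.5-fold. DESI2 lies at 1.68, far above the dashed line, and the other 8 members lie between the lines.

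Scatter of the arrays can be gauged only roughly, from genes near the floor. Olfactory receptor genes, of which 348 were named, had a largest absolute difference of 0.93, and 37 of them (10.6%) were past 1.5-fold. Of the 8844 kept genes, 115 exceeded it, DESI2 among them and no other member. DESI2 was picked for its difference on these same arrays, so its place among the 115 is no evidence that it lies beyond scatter. Genes near the floor also do not gauge scatter at the level of DESI2 or between cultures. The kept genes nearest to DESI2 in order of difference were CCN1 (1.70) and SLC2A14 (1.70) above it and CAB39L (1.53) and RASSF5 (1.36) below it. This likeness is a gap in a single difference between arrays, at most 0.32 for these genes.

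The genes that attach SUMO are described next. Since DESI2 was picked for its size, a smaller difference in these genes says nothing about them. Among the modifiers, SUMO2 measured 15.61 in siYY1 and 15.37 in siControl, a difference of 0.24, and SUMO3 differed by -0.09. SUMO2 has 20 like-named pseudogenes in the RefSeq table, so its value is uncertain. SUMO4 lay under the expression filter. SAE1, a subunit of the activating enzyme, differed by 0.04.

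All 10 measured SUMO ligase genes, PIAS4 included, were kept, and 6 were higher and 4 lower in siYY1, with a median of 0.13. None was past 1.5-fold, against 6.82% of all kept genes in either direction, and with so few genes this was not read further. The mitochondrial ligase gene MUL1 had the largest difference, at 10.74 in siYY1 and 10.25 in siControl (0.48). RANBP2, a nuclear pore protein with ligase activity, differed by 0.36. NSMCE2, the ligase of the SMC5/6 complex, was lowest at -0.12, followed by PIAS3 at -0.07. PIAS1 (-0.004) and PIAS2 (-0.07), which like PIAS3 belong to the family of PIAS4, were close to 0. The ubiquitin ligases that read SUMO chains were RNF4, which differed by 0.32, and RNF111, which differed by 0.06.

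Known SUMO substrates and nuclear body proteins were the SUMO list with members past 1.5-fold besides DESI2's own group. Of 10 kept genes, 5 were higher and 5 lower, with a median of -0.004. The kinase gene HIPK2 measured 12.02 in siYY1 and 12.80 in siControl, 1.72-fold lower in siYY1. RNF168, a ubiquitin ligase of the DNA damage response, measured 10.34 in siYY1 and 11.05 in siControl, 1.64-fold lower in siYY1. MORC3, an ATPase found in PML nuclear bodies, measured 10.99 in siYY1 and 10.32 in siControl, 1.59-fold higher in siYY1. SATB1, a chromatin organiser, was just under the threshold at 0.58. PML, the scaffold of those bodies, differed by 0.34, and its partners DAXX and SP100 by 0.21 and -0.04. Across the SUMO pathway lists joined, members left out, 3 of 24 kept genes were past 1.5-fold (1 higher, 2 lower), and the median was 0.05. That share of 12.5% stands beside 6.82% of kept genes, and with so few genes it was not read further.

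**Figure D3:**
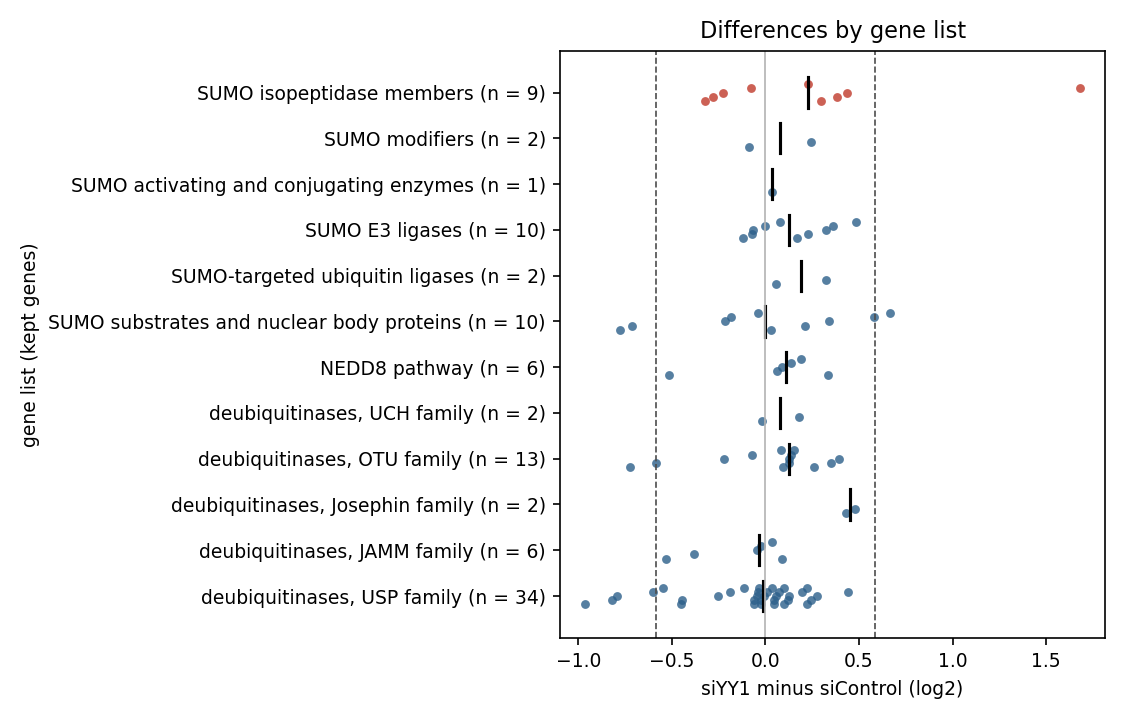
Difference siYY1 minus siControl (horizontal axis, log2) of each kept gene in the SUMO, NEDD8 and deubiquitinase lists; each dot is a gene, the black bar is the list median and dashed lines mark 1.5-fold. DESI2 at 1.68 is the single dot beyond 1 on the high side.

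Related proteases of other ubiquitin-like proteins were set beside the group. SENP8, which shares the SENP fold but cuts NEDD8, measured 8.19 in siYY1 and 8.71 in siControl, a difference of -0.52. The other 5 kept NEDD8 pathway genes were higher in siYY1, from 0.06 for UBE2F to 0.33 for NAE1, a subunit of the NEDD8 activating enzyme. Among 57 kept deubiquitinase genes, 30 were higher and 27 lower, with a median of 0.03. None was higher by 1.5-fold or more, against 3.04% of all kept genes, and 6 were lower by as much, against 3.78%. In either direction these 6 made 10.5% of the 57, against 6.82% of all kept genes. These 6 were USP53 (-0.96), USP46 (-0.82), USP54 (-0.79), YOD1 (-0.73), USP28 (-0.60) and OTUD7B (-0.59). OTUD7B measured 7.55 in siYY1, at the edge of the filter, so the size of its difference is uncertain. By family, the medians were -0.02 for 34 USP genes, 0.13 for 13 OTU genes, -0.03 for 6 JAMM genes, 0.08 for 2 UCH genes and 0.45 for 2 Josephin genes. The most positive of these 57 kept genes was the Josephin gene JOSD2 at 0.48, followed by USP33 at 0.44. Under the filter, the USP family also held CYLD (0.78) and USP2 (0.58) on the high side. On the low side it held USP17L25 (-0.67) and USP17L28 (-0.60).

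Genes that lie near DESI2 on chromosome 1 were examined next, to see whether any had a like difference. Of the 4 nearest measured genes on each side, 4 of 8 were kept. The next gene downstream, COX20, an assembly factor of cytochrome oxidase, measured 12.13 in siYY1 and 12.30 in siControl, a difference of -0.18. HNRNPU, a nuclear RNA-binding protein gene, differed by 0.06. DRC8, the third gene downstream, measured 9.64 in siYY1 and 8.83 in siControl, a difference of 0.82, and was past 1.5-fold. It was 1 of 4 kept neighbours, beside 3.04% of all kept genes higher by as much. On the other side SDCCAG8, the farthest of the 4, differed by 0.27. ZBTB18, SPMIP3, CATSPERE and KIF26B lay under the filter, with differences from 0.11 for CATSPERE to 0.56 for SPMIP3. COX20 was thus the only one of the 8 with a negative difference, and its size was about the median absolute difference of kept genes, 0.18. The other neighbours were higher in siYY1, with the largest difference for DRC8, but 4 of the 8 lay under the filter. Of all 8844 kept genes, 4454 were higher. With so few neighbours their direction was not read further.

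Around the other members, the kept neighbours past 1.5-fold were CD68 near SENP3 (-1.08) and ZBTB11 near SENP7 (-0.64). Each was 1 of 5 kept neighbours of that member, beside 6.82% of all kept genes past 1.5-fold in either direction. CD68 measured 7.64 in siYY1, close to the filter, so the size of its difference is uncertain. PFKM, which overlaps SENP1 in the RefSeq table, differed by -0.22, opposite in sign to SENP1. No kept neighbour of DESI1, PIAS4, SENP1, SENP5, SENP6 or USPL1 was past 1.5-fold, but PIAS4 had only 2 kept neighbours and SENP6 only 3.

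**Figure D4:**
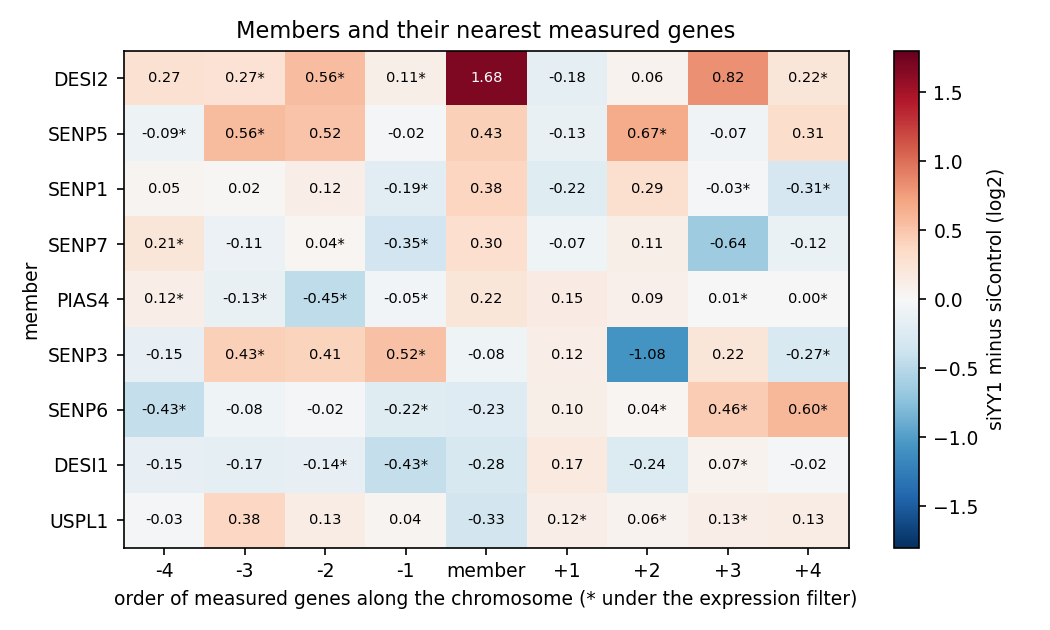
Differences siYY1 minus siControl (log2, colour and printed value) of each member (middle column) and the 4 nearest measured named genes on each side, in chromosome order (horizontal axis, steps from the member); an asterisk marks genes under the expression filter. In the DESI2 row the value of 1.68 is flanked by 0.11 and -0.18.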

How the data were processed

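Gene expression was measured in SW48 cells on 1 array per group. The authors deposited a summarized value for each probe set, used here as a log2 value. That unit was read from the values, which spanned 2.32 to 17.97 in siYY1 and 2.46 to 17.90 in siControl. Not given in the sources used here are the software, the normalization and the log base. Both arrays had nearly equal distributions, with sorted values at most 0.153 apart. A fold assumes plain log2, and would change under another base or a rescaling.

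Of 21448 probes, 17709 had 1 gene symbol in GEO's platform annotation, 0 symbols changed when updated through the RefSeq table (GRCh38.p14), and 3739 are unnamed here. Probes of the same gene were averaged (20 genes). With a single array per group nothing was tested, and fixed rules of size were used. The number of arrays limits the precision. The genes, lists and rules were chosen with earlier results of these data known. The genes named were all members, kept list genes past 1.5-fold and up to 2 at each end of a list, ACTB, GAPDH, the 4 genes nearest to DESI2 in difference, and its neighbours. Other genes were named after their values were seen, among them CYLD, USP2, USP17L25, USP17L28, PIAS1, PIAS2, PML, DAXX and SP100. The epithelial markers and neighbours of other members were also named after their values were seen. Promoter windows came from RefSeq, and 7 of the 10 members matched. Counting was tested on simulated data. Alternatives were no filter or a stricter filter (60th percentile), quantile normalization, median and lowess centring (fraction 0.3), the brightest probe, other fold thresholds and a constant of 16 added on the linear scale. Python 3.11.15, numpy 2.4.6, pandas 2.3.3, statsmodels 0.14.6 and matplotlib 3.10.9 were used.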

Additional observations from a re-analysis of the deposited data

How the results depend on the processing

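The difference of DESI2 stayed between 1.67 and 1.68 under no filter, a stricter filter, quantile normalization, median and lowess centring, the brightest probe and a constant added on the linear scale. Its rank, not computed with the constant, stayed between 4 and 7. The other 8 members kept their signs in all 48 recomputed values and shifted by at most 0.03. The median of the members was 0.073 with the stricter filter, against 0.22, since SENP7 was no longer kept. The count of members past the threshold was 4 of 9 at an absolute log2 difference of 0.32. Of 25 kept SUMO pathway genes with PIAS4, 9 were past 0.32, 3 past 1.5-fold and 0 past 2-fold. The shares of all kept genes at these thresholds were 25.7%, 6.82% and 0.95%. Over all genes the count was 1394 of 17687 (7.88%) with no filter. Of the 8844 kept genes it was 84 at 2-fold and 2274 at 0.32, against 603 at 1.5-fold. No paired analysis was possible because each group had 1 array. The absence of replicates, rather than the processing, limits these values: none of these alternatives measures the spread between cultures, and a second siRNA was not analysed here.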
